A study of Homo sapiens with 24 samples.

Results

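The MCM2-7 complex, the motor of the replicative DNA helicase, is built from the products of the genes MCM2, MCM3, MCM4, MCM5, MCM6 and MCM7. These 6 genes were taken by name, with no threshold on their values but with earlier results of these data known, and each was matched to its identifier among the 12285 genes of the deposited expression table. Their transcript levels were followed through 24 samples of K562, an established line from a human leukaemia, erythroid in character and grown in suspension. The cells, grown in RPMI with 10% bovine calf serum and P/S, were made synchronous by centrifugal elutriation, which separates cells by size, and a sample was frozen every 2 h from 0 h to 46 h. There was 1 library per time point and no replicate, untreated or unsynchronized sample, so spread was measured over time points of the same series. The study took 12 time points, or 24 h, as 1 cycle and asked which time points departed from their neighbours across many genes (STRIPEs).

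In the G1 phase the complex is loaded onto DNA as an inactive ring by the origin recognition complex, CDC6 and CDT1, a step called licensing. At the start of S phase the kinases CDC7 with DBF4 and CDK turn it into the active helicase, together with CDC45 and the 4 GINS proteins. Each subunit belongs to the AAA+ ATPase family, and MCM genes are known targets of E2F transcription factors, which act around the G1/S transition.

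The promoters are shown because E2F factors are known for binding near the start sites of MCM genes. RefSeq promoter windows (GRCh38.p14, 300 bases, from 250 before to 50 after each start) were matched for MCM2, MCM3, MCM6 and MCM7. MCM4 and MCM5 had no window in the set used, so their promoters were not searched and are not shown. Each line gives the strand of the gene from 190 bases before to 20 bases after the start, and capitals mark matches to the E2F-type words TTTCCCGC, TTTCGCGC, TTTGCCGC and TTTGGCGC on either strand, with overlapping matches joined. The stretches lie at chr3:127598221-127598430 (plus strand) for MCM2, chr6:52284723-52284932 (minus) for MCM3, chr2:135876424-135876633 (minus) for MCM6 and chr7:100101378-100101587 (minus) for MCM7, the only 1 of 3 MCM7 windows with a match.
MCM2: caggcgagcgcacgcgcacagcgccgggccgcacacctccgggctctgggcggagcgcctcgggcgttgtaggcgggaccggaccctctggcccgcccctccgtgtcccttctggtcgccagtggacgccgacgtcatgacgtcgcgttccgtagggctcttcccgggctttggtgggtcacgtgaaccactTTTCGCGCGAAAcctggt
MCM3: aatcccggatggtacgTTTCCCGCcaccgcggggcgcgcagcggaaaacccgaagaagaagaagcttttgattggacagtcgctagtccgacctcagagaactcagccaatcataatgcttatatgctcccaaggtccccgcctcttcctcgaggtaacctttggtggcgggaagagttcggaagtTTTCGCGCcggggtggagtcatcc
MCM6: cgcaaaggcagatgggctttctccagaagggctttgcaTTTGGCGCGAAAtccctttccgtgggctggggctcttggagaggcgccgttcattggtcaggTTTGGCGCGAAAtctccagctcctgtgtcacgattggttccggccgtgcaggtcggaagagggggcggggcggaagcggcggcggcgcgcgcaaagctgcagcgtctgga
MCM7: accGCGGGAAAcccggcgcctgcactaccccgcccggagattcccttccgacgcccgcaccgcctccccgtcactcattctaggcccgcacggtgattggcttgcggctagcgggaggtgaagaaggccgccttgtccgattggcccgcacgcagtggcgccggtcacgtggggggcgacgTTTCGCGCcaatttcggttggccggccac

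Counting the start as position 1, the matches began at 3 in MCM2, at -174 and -4 in MCM3, at -152 and -90 in MCM6 and at -187 and -9 in MCM7. In MCM2 and at both places in MCM6, a second word on the opposite strand overlapped the first, 4 bases downstream. Of all 35116 promoter windows, 3.31% held at least 1 such stretch and 0.125% held at least 2. Of the 9004 genes of the expression table with a window, 7.0% had 1. The CCAAT box, searched on both strands, was found in the windows of MCM3, MCM6 and MCM7, not in that of MCM2, and in 34.6% of all windows. A match describes these letters and was not tested as a binding site.

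The values were FPKM, which are scaled by transcript length and by library, and the number of reads behind them is unknown, so no counting interval can be given. The summed FPKM was 566247 at 16 h and 591309 at 18 h, while the remaining 22 libraries had 456791 to 520382. The study named 16 h and 18 h as anomalous and 32 h as a milder case, and 6 h also had many departing genes. Each result is therefore given with and without 16 h and 18 h, and where it matters also without 6 h and 32 h. The 7 K562 markers reported here (GATA1, TAL1, HBG1, HBG2, HBZ, TFRC and KLF1) were all in the table, with mean levels of 47.4 to 2225 FPKM. Of 9 markers of lymphoid, fibroblast and macrophage cells, 4 were in it, with mean levels of 0.92 to 19.6 FPKM, and CD3E, MS4A1, COL1A1, DCN and CD14 were not.

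MCM7 had the highest transcript level of the 6 and MCM2 the lowest. The means over 24 time points were 288 ± 47.6 FPKM for MCM7, 206 ± 39.1 for MCM4, 111 ± 8.23 for MCM3, 103 ± 16.4 for MCM6, 83.3 ± 17.7 for MCM5 and 56.6 ± 8.23 for MCM2 (SD, n = 24). FPKM is per length, so these levels were set side by side, although GC content and overlap with other genes, given below, differ between the members. MCM2 was at or above 84.2% of the genes in the table by mean level and MCM7 at or above 98.1%. MCM7 lay above MCM4 at 22 of 24 time points, and the order turned at 16 h and 18 h. MCM3 lay above MCM6 at 18 of 24 time points and below it at 0 h, 2 h, 4 h, 20 h, 24 h and 46 h, so these neighbours in the order did not differ beyond their spread (ratio 1.08 ± 0.11, SD, over 22 time points). MCM6 lay above MCM5 at 20 of 24 time points, with a ratio of 1.22 ± 0.17 and a range of 0.95 to 1.44. Every other pair kept its order at all 24 time points.

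**Figure D1:**
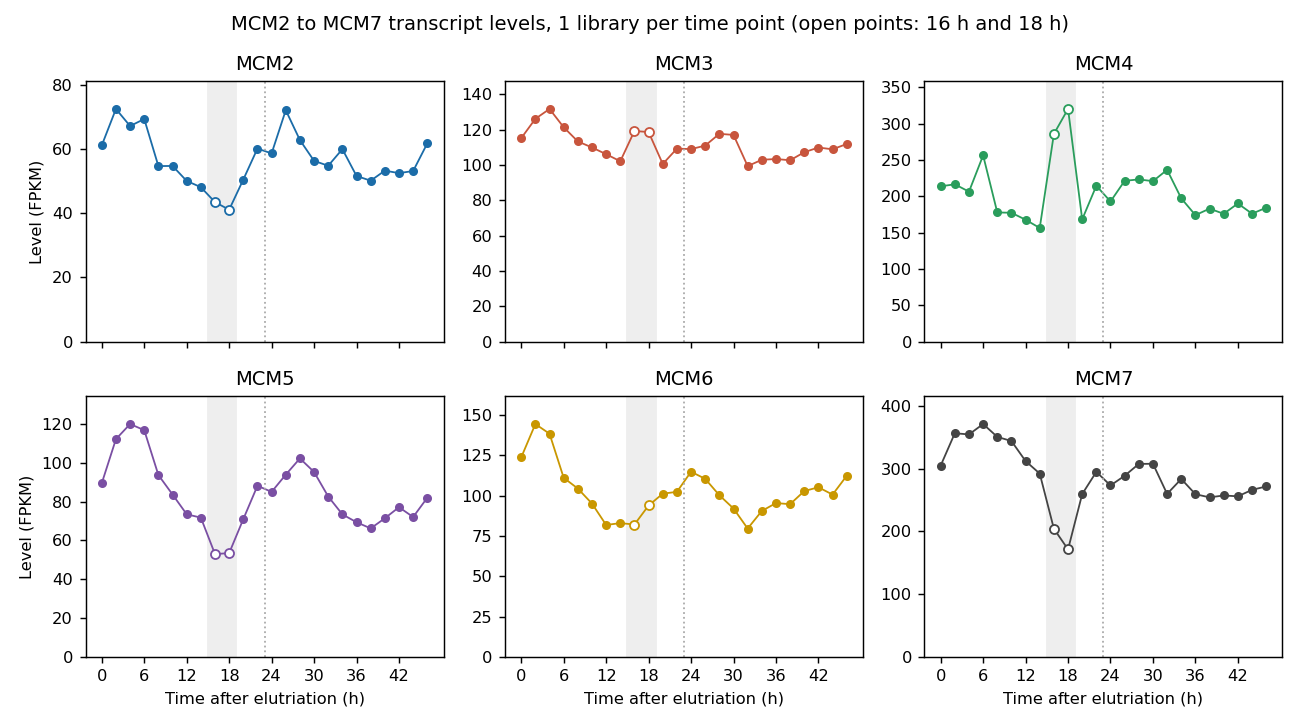
Transcript level in FPKM against time after elutriation for each subunit gene, with 1 library per point, a scale from 0 that differs between panels, a grey band and open points at 16 h and 18 h, and a dotted line between the 2 days. Outside the band all 6 genes have their highest point between 2 h and 6 h, that of MCM4 (257 FPKM) in the 6 h library, which departed from its neighbours. At 16 h and 18 h MCM4 reaches 286 and 320 FPKM and MCM7 falls to 204 and 171 FPKM.

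Leaving out 16 h and 18 h keeps 22 time points. Over these, each of the 6 transcripts was highest between 2 h and 6 h, as were 24.7% of all genes. For MCM4 this rested on the 6 h library, as given below. The lowest levels of the 6 were at 14 h, 32 h or 38 h, where 15.6% of all genes had theirs. Both sets of hours are those of the 6 genes themselves, so the 2 shares are descriptive and not a test. MCM2 and MCM5 form the gate through which the ring opens onto DNA, and MCM2 also binds histones. MCM2 had a lowest level of 48.1 FPKM at 14 h, a median of 55.5 and a highest level of 72.4 at 2 h, and on day 2 it came back to 72.0 FPKM at 26 h. Its highs on the 2 days were thus 24 h apart and almost equal. MCM5 had a lowest level of 66.2 FPKM at 38 h, a median of 83.2 and a highest level of 120.1 at 4 h, and its day 2 high of 102 FPKM at 28 h was also 24 h after that of day 1. MCM3, which takes part in the contact with the loading machinery, varied least, with a lowest level of 99.4 FPKM at 32 h, a median of 109.6 and a highest level of 132 at 4 h. The 32 h library departed from its neighbours for MCM3, by -0.14 on the log2 scale against -0.04 to 0.11 at 16 reference time points, and without 6 h and 32 h its lowest level was 100.6 FPKM at 20 h. Its day 2 high was 118 FPKM at 28 h. The 22 h, 28 h and 30 h libraries shared a shift for RPA1 and RFC4, replisome genes picked after their values were seen. RPA1 had 59.2 to 61.5 FPKM there, while its levels at 24 h and 26 h were 49.4 and 47.2. RFC4 went the other way, with 104 to 115 FPKM there but 134 and 153 at 24 h and 26 h. RPA2 differed little, with 104 to 106 FPKM there and 108 and 109 at 24 h and 26 h. How many genes shared the shift was not counted. The day 2 highs of MCM3 and MCM5 lay at 28 h, and the part of this shift in them was not tested.

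MCM4, MCM6 and MCM7 can form a helicase of their own in the test tube, and the tail of MCM4 is a target of the CDC7 kinase. MCM4 had a lowest level of 157 FPKM at 14 h, a median of 192 and a highest level of 257 at 6 h, with a day 2 high of 237 FPKM at 32 h. Its value lay 0.42 above the mean of its neighbours on the log2 scale at 6 h and 0.18 above it at 32 h. At the 16 reference time points this distance was -0.26 to 0.25, so 6 h was outside that range and 32 h within it. Some reference time points had 6 h or 32 h as a neighbour, so the ranges given for MCM3, MCM4 and MCM6 are not free of these libraries. Without 6 h and 32 h the highest level of MCM4 was 223 FPKM at 28 h, and its highest on day 1 was 217 FPKM at 2 h. MCM6, whose product binds CDT1, had a lowest level of 79.6 FPKM at 32 h, a median of 102 and a highest level of 144 at 2 h, and its day 2 high of 115 FPKM was already reached at 24 h. Its low also lay in a departing library, since at 32 h MCM6 was -0.19 from the mean of its neighbours against a reference range of -0.12 to 0.14. Without 6 h and 32 h its lowest level was 81.8 FPKM at 12 h. MCM7 had a lowest level of 254 FPKM at 38 h, a median of 290.4 and a highest level of 371 at 6 h, with 308 FPKM at 30 h on day 2. This day 2 high of MCM7, and that of MCM4 without 6 h and 32 h, also lay in libraries with the shift given for RPA1 and RFC4. The ratio of the highest to the lowest level was 1.33 for MCM3, 1.46 for MCM7, 1.51 for MCM2, 1.64 for MCM4, 1.81 for MCM5 and 1.81 for MCM6, against a median of 1.75 for all genes. With all 24 time points the range of MCM4 widened to 157 to 320 FPKM, that of MCM7 to 171 to 371, that of MCM5 to 53.0 to 120.1 and that of MCM2 to 41.1 to 72.4, while those of MCM3 and MCM6 stayed as given.

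To ask whether the transcripts followed a 24 h order, every gene was given a JTK statistic, that is the highest Kendall S of its values with a 24 h cosine among 12 phases. RNA came from whole samples, so a higher share of cells in a phase and more RNA per cell cannot be told apart. Over all 24 time points 4 of the 6 genes passed at a permutation p of at most 0.05, Benjamini-Hochberg adjusted over all genes, against 13% of the 12285 genes, and all 4 had a phase from 0 h to 6 h, against 5.56%. The adjusted permutation p was 0.00178 for MCM2 (phase 2 h) and for MCM5 (phase 4 h), 0.00573 for MCM7 (phase 6 h) and 0.0128 for MCM6 (phase 0 h). It was 0.117 for MCM3 and 0.181 for MCM4. Without 16 h and 18 h all 6 passed, against 16.2% of all genes, each at a phase from 0 h to 6 h, against 7.24%, and the adjusted permutation p of MCM3 and MCM4 became 0.0154 and 0.0115, both at phase 4 h. Without 6 h, 16 h, 18 h and 32 h all 6 passed again, against 8.64% of all genes, and again at phases from 0 h to 6 h, against 3.82%. The span of phases from 0 h to 6 h is that of the members themselves, so its shares are descriptive and not a test. The p assumes exchangeable time points, whereas neighbouring samples of a series can resemble each other.

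The size and hour of the wave were then estimated with limma, as the cosine and sine terms of a 24 h harmonic on log2(FPKM + 1) beside a straight line in time. The amplitude is the distance from the mean to the peak in log2 units, and the peak hour is counted within the 24 h cycle. Over all 24 time points 4 of the 6 genes passed at an adjusted p of at most 0.05, against 11.7% of 12253 genes. MCM5 had an amplitude of 0.36 ± 0.05 (SE), a peak-to-trough fold of 1.66 and a peak at 3.91 ± 0.46 h (limma adjusted p = 0.00257). MCM2 had an amplitude of 0.25 ± 0.04 and a peak at 3.33 ± 0.55 h (limma adjusted p = 0.00541). MCM7 had 0.23 ± 0.06 at 5.38 ± 0.87 h (limma adjusted p = 0.0312), and MCM6 had 0.21 ± 0.05 at 0.66 ± 0.86 h (limma adjusted p = 0.0178). MCM3 and MCM4 had amplitudes of 0.06 ± 0.03 and 0.08 ± 0.07 (limma adjusted p = 0.255 and 0.663). The median amplitude was 0.22 for the 6 genes and 0.14 for all genes.

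Leaving out 16 h and 18 h changed which subunits passed but kept the count at 4 of 6, against 15.1% of all genes. MCM4 then had an amplitude of 0.23 ± 0.04 with a peak at 3.93 ± 0.57 h (limma adjusted p = 0.00832). MCM7 dropped to 0.10 ± 0.03 at 5.67 ± 1.05 h (limma adjusted p = 0.0968), so its call was lost without these libraries, although its order in time passed without them. MCM2, MCM5 and MCM6 still passed, with amplitudes of 0.21 ± 0.04, 0.28 ± 0.04 and 0.20 ± 0.04. Without 6 h and 32 h as well, all 6 passed, against 11.8% of all genes, and MCM3 and MCM7 had amplitudes of 0.10 ± 0.03 and 0.12 ± 0.03. Over 13 settings with a 24 h period MCM2, MCM5 and MCM6 passed in 13, MCM7 in 8 and MCM3 and MCM4 in 3 each. In the fit without 16 h and 18 h the peak hours ran from 23.9 h for MCM6 through 2.73 h for MCM3, 2.86 h for MCM2, 3.56 h for MCM5 and 3.93 h for MCM4 to 5.67 h for MCM7, and the differences between them were not tested.

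**Figure D2:**
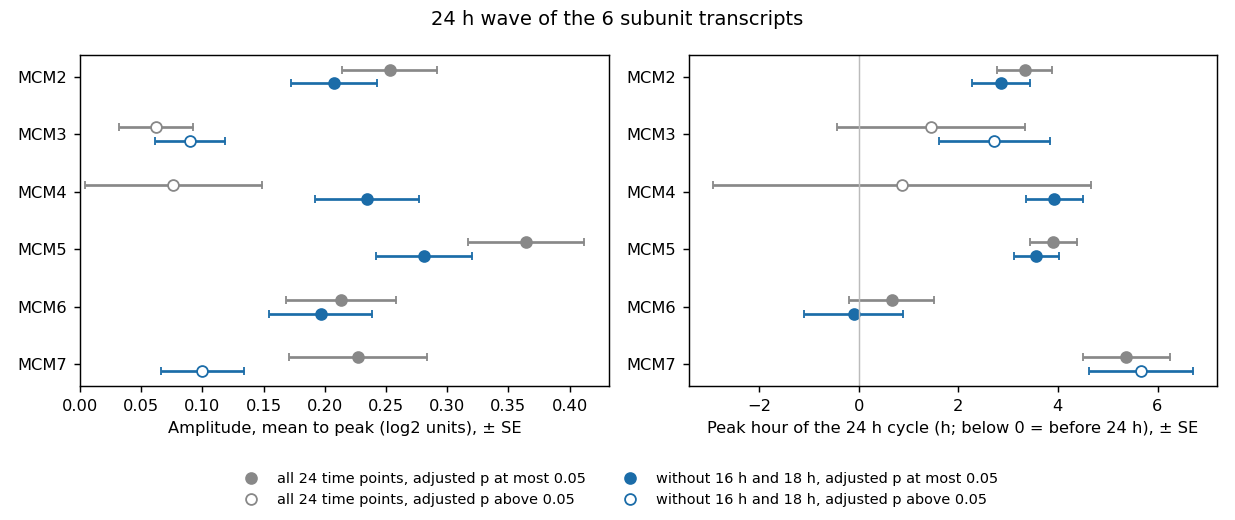
Amplitude in log2 units (left) and peak hour (right) of the 24 h harmonic for each subunit gene, with bars of ± SE, in grey for all 24 time points and in blue without 16 h and 18 h, filled where the limma adjusted p was at most 0.05. The amplitude of MCM4 moves from 0.08 to 0.23 and that of MCM7 from 0.23 to 0.10 when the 2 libraries are left out, and MCM6 has the earliest peak and MCM7 the latest.

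The level on day 2 was compared with that on day 1 over the 12 pairs of libraries 24 h apart. None of the 6 genes passed (0 of 6 also at an unadjusted limma p of at most 0.05), against 14.6% of all genes. The differences ran from 0.04 ± 0.06 (SE) for MCM2 to -0.11 ± 0.08 for MCM7 on the log2 scale (limma adjusted p = 0.267 to 0.713). On day 2 MCM7 was lower at 9 of 12 matched hours, and so were MCM3 and MCM5. Without 16 h and 18 h, and so with 10 pairs, MCM7 fell by 0.22 ± 0.05 (limma adjusted p = 0.0071) and MCM5 by 0.15 ± 0.04 (limma adjusted p = 0.0229), each lower at 9 of 10 hours, against 7.02% of all genes lower on day 2 and 19.6% that differed in either direction. MCM7 had a mean of 8.34 on day 1 and 8.12 on day 2 on the log2(FPKM + 1) scale over those hours. With 8 pairs, without 6 h and 32 h as well, MCM7 still passed (-0.19 ± 0.04, limma adjusted p = 0.02, against 5.53% of all genes lower on day 2) and MCM5 did not (-0.13 ± 0.04, limma adjusted p = 0.0637), and 14.5% of all genes differed in either direction.

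A limma test of the day terms of the harmonic asked whether the wave itself differed between the 2 days. MCM6 and MCM5 passed, 2 of 6 against 5.84% of all genes. MCM6 had an amplitude of 0.36 ± 0.04 with a peak at 2.43 h on day 1 and of 0.17 ± 0.04 with a peak at 21.8 h on day 2 (limma adjusted p = 0.0098). Its levels fell from 144 FPKM at 2 h to 81.8 at 12 h on day 1, whereas on day 2 the fall ran from 115 FPKM at 24 h to 79.6 at 32 h and was followed by 112 FPKM at 46 h. The 32 h value was below its neighbours of 92.1 and 90.5 FPKM, and without it the lowest level of day 2 was 90.5 FPKM at 34 h. The change for MCM6 passed in 12 of 12 settings, the one without 6 h and 32 h included. A single harmonic with a period of 20 h left a smaller residual for MCM6 than that of 24 h (SD 0.11 against 0.15, limma adjusted p = 0.0103 against 0.0178), and a change of the 24 h wave was not tested against a constant shorter period. MCM5 had an amplitude of 0.51 ± 0.05 on day 1 and 0.25 ± 0.05 on day 2, with peaks at 4.33 h and 3.12 h (limma adjusted p = 0.0391). Without 16 h and 18 h the day 1 amplitude of MCM5 was 0.42 ± 0.05 and its adjusted p 0.109, so that MCM6 alone passed, against 4.85% of all genes. MCM6 was also the only member to pass without 6 h and 32 h as well, against 11.3%. MCM7 had amplitudes of 0.41 ± 0.06 and 0.11 ± 0.06 (limma adjusted p = 0.0594) and MCM2 of 0.33 ± 0.04 and 0.16 ± 0.04 (limma adjusted p = 0.13). The fitted amplitude was lower on day 2 for 5 of the 6 genes, the exception being MCM4 (0.15 ± 0.10 and 0.18 ± 0.10), and without 16 h and 18 h for all 6. A lower amplitude on day 2 was the general course of the series, found for 79.9% of all genes, and for 69.0% without 16 h and 18 h.

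**Figure D3:**
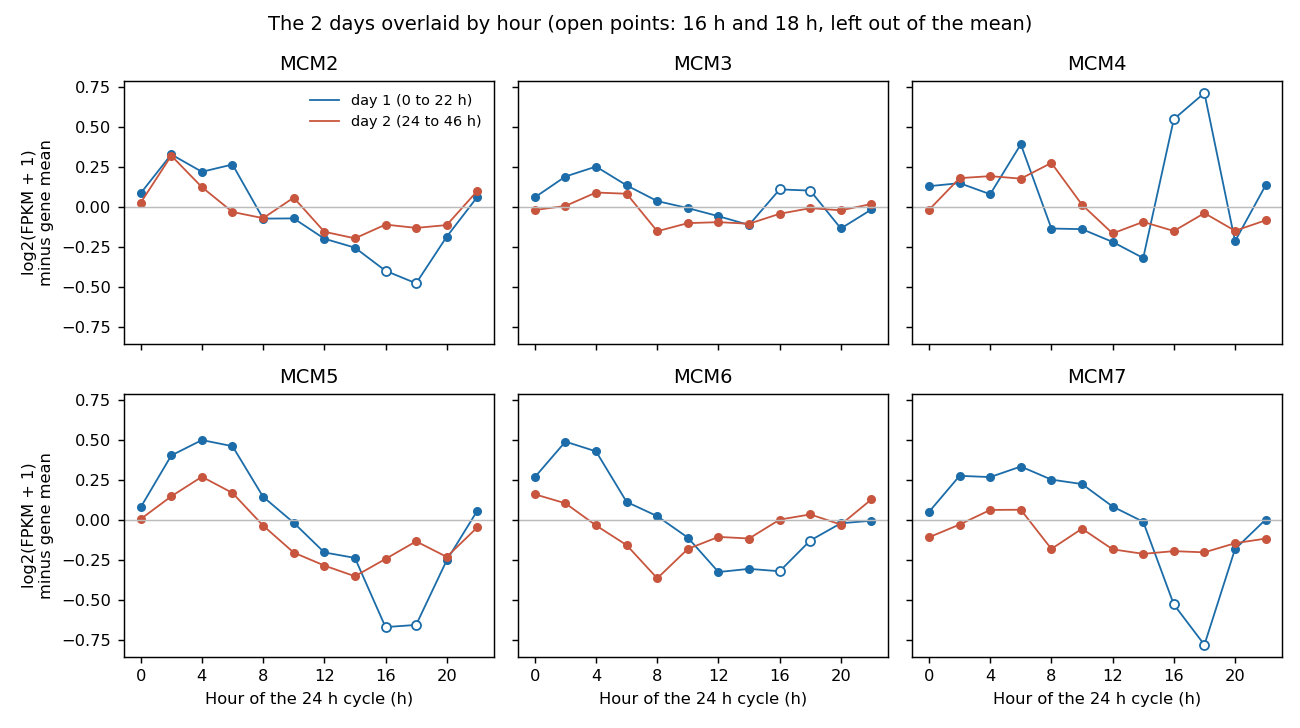
log2(FPKM + 1) minus the gene's mean over 22 time points, against the hour of the 24 h cycle, for day 1 (blue) and day 2 (red), with open points at 16 h and 18 h. MCM2 peaks at the same hour and height on both days, MCM5 and MCM7 are lower on day 2 at most hours, and MCM6 reaches its low point at 8 h of day 2 (79.6 FPKM, in the 32 h library, outside its reference range) against 12 h of day 1 (81.8 FPKM).

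At 16 h and 18 h the subunits moved in opposite directions. Between flanks of 157 FPKM at 14 h and 168 at 20 h, MCM4 had 286 FPKM at 16 h and 320 at 18 h, the highest of its 24 values. MCM7 had 204 and 171 FPKM between flanks of 292 and 259, its lowest. MCM5 had 53.0 and 53.5 FPKM between 71.8 and 71.0, and MCM2 had 43.4 and 41.1 FPKM between 48.1 and 50.5. Both genes were also at their lowest there. MCM3 had 119 FPKM at both, between 102 and 101, and MCM6 had 82.1 and 93.9 FPKM between 83.0 and 101. Measured on log2(FPKM + 1) as the mean distance to a line drawn from 14 h to 20 h, the deviation was 0.89 for MCM4, 0.23 for MCM3, -0.06 for MCM6, -0.22 for MCM2, -0.42 for MCM5 and -0.56 for MCM7. None of the 6 reached 1 (2-fold) in size, which 8.95% of all genes did above and 7.11% below the line.

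Set against the same measure at 16 other pairs of time points, MCM4 and MCM3 lay above every reference pair, as did 43.6% of all genes, and MCM2, MCM5 and MCM7 lay below every one, as did 28.0%. MCM6 stayed within its reference range of -0.15 to 0.27 as deposited. The signs depended on the scaling for MCM3, which was -0.0031 after upper-quartile scaling, and for MCM2, which was 0.13 after the GC trend had been removed. The median of all genes was 0.14 as deposited, 0.03 after median centring and -0.06 after upper-quartile scaling. Relative to that median, the deviation as deposited was 0.76 for MCM4, 0.09 for MCM3, -0.20 for MCM6, -0.35 for MCM2, -0.55 for MCM5 and -0.69 for MCM7. Of the genes past 2-fold, 55.7% lay above the line as deposited, 41.6% after centring and 30.9% after upper-quartile scaling.

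The deviation moved with the GC content of the transcripts over all genes, from a median of 0.55 below 40% GC to -0.62 at 60% or more. MCM2, MCM7 and MCM5 had GC contents of 58.1%, 57.6% and 57.0% and negative deviations, and the median in their GC class was -0.33. MCM4, at 48.5% GC, lay at 0.89 where its class had a median of 0.19, and MCM6, at 43.1% GC, lay at -0.06 where its class had 0.40. After a smooth GC trend had been removed from each library, the deviation was 0.74 for MCM4, 0.24 for MCM3, 0.13 for MCM2, -0.12 for MCM5, -0.23 for MCM7 and -0.44 for MCM6. MCM6 thus became the most negative of the 6 and left its reference range, which was -0.18 to 0.29 with the trend removed, while MCM2 came to lie within its own. On that scale MCM3 and MCM4 lay above every reference pair, as did 33.1% of all genes, and MCM5, MCM6 and MCM7 below every one, as did 31.3%. In GENCODE 29, AP4M1 overlaps 8.94% of the exon bases of MCM7 on the opposite strand, and it deviated by -0.94. An antisense gene overlaps 22.7% of those of MCM2 and was not in the table. Strand was not stated, so reads from overlapping genes cannot be told apart. PRKDC, the neighbour of MCM4, deviated by 0.19. The part of any of these in the deviations was not tested.

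**Figure D4:**
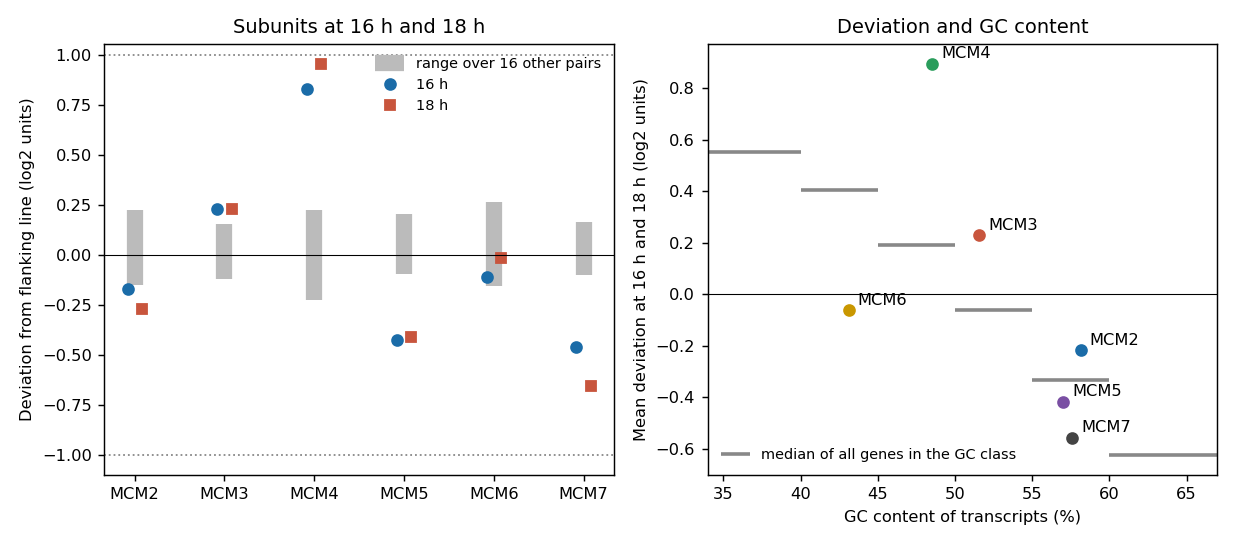
Left, deviation of each subunit gene at 16 h (blue circles) and 18 h (red squares) from the line between 14 h and 20 h, in log2 units, with grey bars for the range over 16 other pairs of time points and dotted lines at 1 and -1. Right, the mean deviation against GC content in percent, with grey lines for the median of all genes in each GC class, where MCM4 (0.89) lies furthest above its class and MCM6 (-0.06) lies below its class median of 0.40.

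Although single subunits moved, their sum in FPKM as deposited changed little at these time points. The FPKM of all genes added up to 566247 at 16 h and 591309 at 18 h, against at most 520382 elsewhere. Set against these totals, the 6 genes together made up a smaller part of the library at 16 h and 18 h than at 14 h and 20 h. The 6 levels added up to 788 FPKM at 16 h and 799 at 18 h, between 754 at 14 h and 751 at 20 h, with a mean of 847 ± 88.5 (SD, n = 24) and a range of 751 at 38 h to 1046 at 6 h over the series. As shares of that sum over 22 time points, MCM7 made up 34.8 ± 2.36%, MCM4 23.1 ± 2.09%, MCM3 13.1 ± 0.64%, MCM6 12.2 ± 1.35%, MCM5 10.0 ± 0.79% and MCM2 6.80 ± 0.44% (SD). At 16 h and 18 h MCM4 made up 36.3% and 40.1%, above its highest share elsewhere of 29.1% at 32 h. MCM7 made up 25.9% and 21.4%, below its lowest share elsewhere of 32.0%, also at 32 h. These are shares of transcript and say nothing of protein, which the complex holds in equal numbers.

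The 6 profiles were also compared with each other, as a description over time points that share libraries. Over 22 time points the Pearson r of each gene with the mean profile of the other 5 was 0.95 for MCM5, 0.88 for MCM3, 0.86 for MCM2, 0.66 for MCM7 and for MCM6, and 0.61 for MCM4. With all 24 time points that of MCM4 was 0.04. Among the 7169 genes that averaged 10 FPKM or more, the 10 other genes most like the mean profile of the 6 over 22 time points were ARL6IP6 (r = 0.88), PTBP2, LINC00667, LINC01287, NCOA4, EPC2, E2F1, GINS2, PAQR4 and DGCR8 (r = 0.84). The profile was less typical of MCM4, MCM6 and MCM7, since 97, 52 and 50 other genes were at least as like it as these members. E2F1, an activator of MCM genes, had a highest level of 30.5 FPKM at 2 h and a lowest of 11.2 at 32 h. That 32 h value lay below 14.5 FPKM at 30 h and 14.0 at 34 h. GINS2, a subunit of the active helicase, had 38.5 FPKM at 2 h and 23.4 at 46 h. With all 24 time points the r was 0.85 to 0.86 for GINS2, LINC00667 and LINC01287, 0.81 for DGCR8, 0.70 for E2F1, 0.69 for PAQR4, 0.55 for ARL6IP6, 0.52 for PTBP2, 0.51 for NCOA4 and 0.39 for EPC2, so for several of these genes the likeness rested on leaving out 16 h and 18 h.

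Genes that load, activate and unload the helicase were read from lists chosen by function, without 16 h and 18 h and with the JTK rule that 16.2% of all genes passed. Of 10 genes of origin recognition and loading 3 passed: CDC6, a loader, at phase 2 h (adjusted permutation p = 0.00212, 97.7 FPKM at 2 h and 47.7 at 14 h), GMNN, the inhibitor of CDT1, at phase 4 h, and ORC3 at phase 18 h. CDT1 and ORC1 had adjusted permutation p values of 0.215 and 0.473, and ORC6 of 0.366. Of 13 genes of helicase activation 4 passed, GINS2, DONSON, RECQL4 and MTBP, the partner of TICRR. CDC45, with 161 to 264 FPKM, did not (0.1), although it passed by the limma harmonic (amplitude 0.23 ± 0.05, peak at 4.76 h, limma adjusted p = 0.019), and neither did GINS1 (0.529), GINS3 (0.529), GINS4 (0.272), CDC7 (0.0728), DBF4 (0.138) and TICRR (0.393). The CDC45 high was in the 32 h library, between 202 FPKM at 30 h and 186 at 34 h. The other MCM family and binding proteins were MCM8, MCM9, MCM10, MCMBP and HROB, and 0 of these 5 passed (2 of 5 at an unadjusted permutation p of at most 0.05, and 2 of 5, MCM8 and MCM10, by the limma harmonic), with MCM10 at 0.0572 and a highest level of 36.7 FPKM at 28 h. The MCM10 high lay in the 28 h library, which had the shift given above for RPA1 and RFC4. MCMDC2 was not in the table.

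Of 19 replisome partners 4 passed, TIPIN, CLSPN, POLD1 and RFC2, while PCNA, the sliding clamp, had 165 to 272 FPKM (adjusted permutation p = 0.181), TIMELESS had 0.197 and WDHD1 0.181. The PCNA low was in the 32 h library, between 197 FPKM at 30 h and 179 at 34 h. Of 8 genes that take the helicase off chromatin 1 passed, NPLOC4, and LRR1 and TRAIP, which mark MCM7 and other subunits with ubiquitin, had 0.446 and 0.318. Of 15 E2F and G1 cyclin regulators 5 passed, E2F1, E2F2, E2F4, E2F7 and CCNE2, and E2F8 and CCNE1 did not (0.0654 and 0.181), while CCNE1 passed by the limma harmonic (limma adjusted p = 0.0257). Over all 24 time points the counts were 3 of 10, 4 of 13, 0 of 5, 4 of 19, 2 of 8 and 6 of 15, against 13% of all genes, but not always for the same genes (DBF4, LIG1 and RPA2 passed there and DONSON and CLSPN did not). The limma harmonic was also read without 16 h and 18 h, where 15.1% of all genes passed it. Its counts were 3 of 10, 5 of 13, 2 of 5, 5 of 19, 3 of 8 and 5 of 15. ORC3, GMNN, POLD1 and E2F7 passed JTK but not the harmonic (limma adjusted p = 0.224, 0.154, 0.0634 and 0.0709). Some genes not named here passed the harmonic alone. The median amplitude without 16 h and 18 h was 0.20 for the subunits, 0.09 to 0.16 for these 6 lists and 0.10 for all genes.

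Most genes of G2 and mitosis were lowest at 4 h, where the subunits were high. All 14 of these genes in the table had their lowest level over 22 time points between 0 h and 6 h, as did 34.6% of all genes, and 10 of the 14 had it at 4 h. This span is that of their own lows, so the share is descriptive. Of the 14, 3 also had their highest level in that span, at 0 h (CDC20 with 111 FPKM, CCNB2 with 89.4 and BUB1 with 80.0), as did 31.7% of all genes, and fell to their lowest level at 4 h or 6 h. CCNB1, the mitotic cyclin, had 65.0 FPKM at 4 h and 237 at 22 h, PLK1 had 30.4 at 4 h and 126 at 32 h, and TOP2A had 47.8 at 2 h and 132 at 36 h. At 28 h CCNB1, PLK1 and TOP2A had 152, 58.8 and 99.6 FPKM, and none of them fell on day 2 to its low of day 1. The PLK1 high was in the 32 h library, between 64.7 FPKM at 30 h and 88.0 at 34 h. Without it the highest level of PLK1 was 94.4 FPKM at 20 h. The fitted peak hours of the 14 genes lay between 12.4 h and 21.2 h without 16 h and 18 h. Their amplitudes ran from 0.05 ± 0.14 (SE) for PLK1 to 0.31 ± 0.13 for CCNB1, so several of these hours were poorly determined. None of the 14 passed the JTK rule without 16 h and 18 h (5 at an unadjusted permutation p of at most 0.05, and 0 by the limma harmonic), and 3 (CCNB2, CDK1 and TOP2A) passed with all 24 time points, so this course was described and not called.

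**Figure D5:**
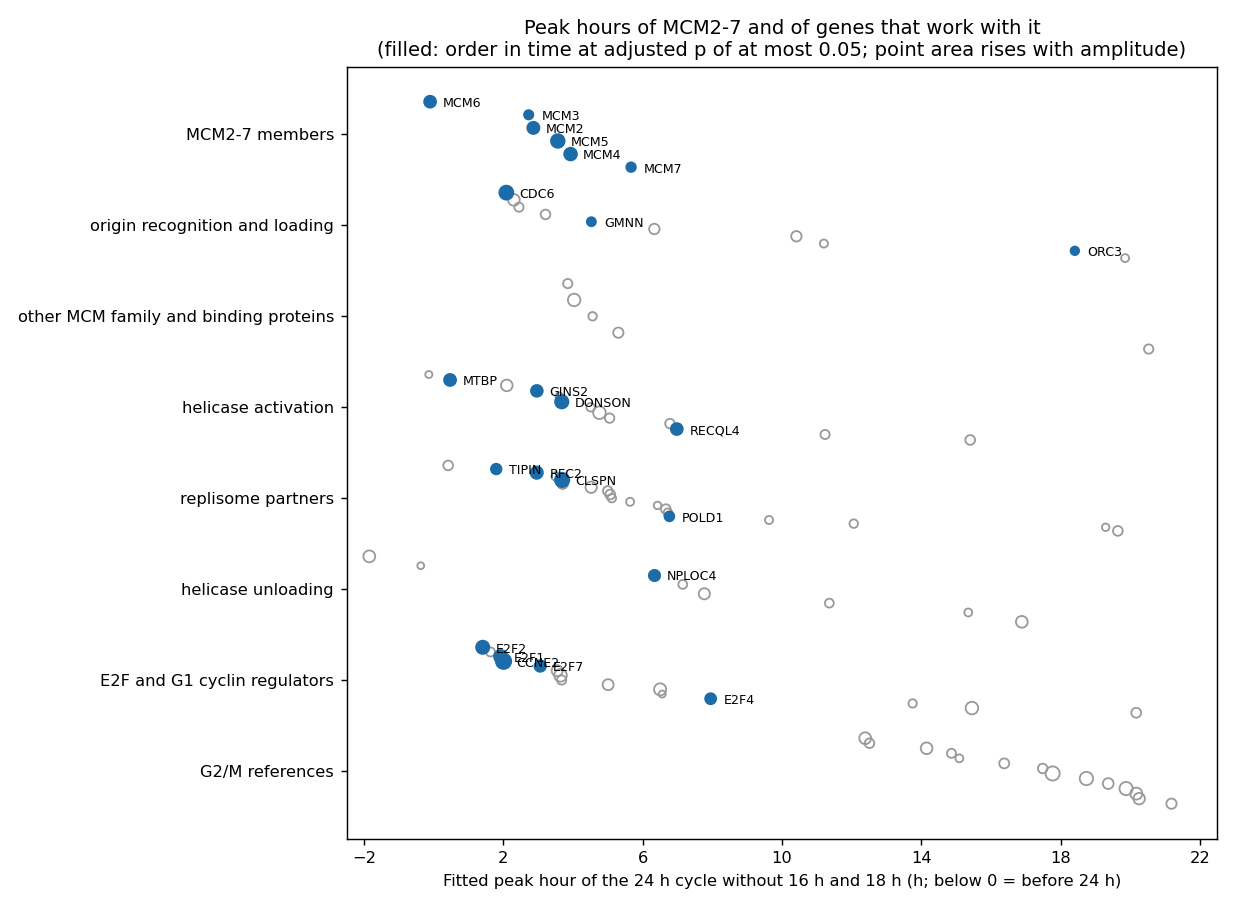
Fitted peak hour of the 24 h harmonic without 16 h and 18 h for the genes of each list, with 1 circle per gene, filled and named where the JTK adjusted permutation p was at most 0.05, and with an area that rises with the amplitude. The 6 subunits lie between 23.9 h (drawn just below 0) and 5.67 h, and the 14 genes of G2 and mitosis lie between 12.4 h and 21.2 h with none filled.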

How the data were processed

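RNA was sequenced in 24 K562 samples, 1 per time point, which were assigned to their hours from the sample labels. The authors aligned reads with STAR and made FPKM values with Cufflinks and Cuffnorm, and the submitters' processing notes name GRCh37. Tool versions, library strand and annotation are not given in the sources used here. The deposited FPKM table listed genes with at least 1 FPKM in at least 12 time points. The authors also deposited a cleaned score per gene and time point, which was used as an alternative only. Read depth could not be read from FPKM, so count models were not used and single values carry no interval.

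Gene names came from a name table, which held 12123 of the 12285 identifiers, and GC content and length of the longest transcript from GENCODE 29 (known for 99.1% of genes). JTK used 12 phases and 100000 orderings, of which 1e-05 is the smallest p, with Benjamini-Hochberg adjustment over 12285 genes. limma 3.58.1 in R 4.3.3 (trended variance) tested the harmonic, the day difference and the change between days on log2(FPKM + 1), and kept the 12253 genes that averaged 1 FPKM or more. This scale understates changes of low genes. Both scripts were tested on simulated data. Deviations at 16 h and 18 h had no test. Sequences came from RefSeq promoter windows (GRCh38.p14), and since the files' build differs, coordinates belong to these windows alone.

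A further marker of the K562 list is not reported here. The 6 members, the gene lists and the tests were chosen with earlier results of these data known. Named genes were the members, the 10 other genes with the highest r to their mean profile, a set of genes from the lists, and the neighbours PRKDC and AP4M1. Members of the lists that passed the JTK rule, and the 3 G2 and mitosis genes that passed with all time points, are also named, after their values were seen. RPA1, RFC4, CDC20 and BUB1 did not pass it and were named for their values, and MCM9 completes its list. Alternatives left out 16 h and 18 h, or these with 6 h and 32 h, replaced 16 h and 18 h by PCHIP interpolation, used quantile normalization, the cleaned table, median centring, upper-quartile scaling, removal of a GC trend (lowess span 0.3), a mean of at least 10 FPKM, no filter, a pseudocount of 0.1, periods of 20 h and 28 h, no straight line in time, a 1.5-fold threshold and flanks at 12 h and 22 h.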

Additional observations from a re-analysis of the deposited data

Results flagged for a closer look

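For MCM5 and MCM6 the fitted 24 h wave differed between the 2 days in a test of the difference itself, the day terms of the harmonic. The limma adjusted p was 0.0391 for MCM5, whose amplitude was 0.51 ± 0.05 on day 1 and 0.25 ± 0.05 on day 2, and 0.0098 for MCM6, whose peak was at 2.43 h on day 1 and 21.8 h on day 2. MCM6 passed in 12 of 12 settings and MCM5 in 8 of 12, with a highest adjusted p of 0.368 for MCM5 in the cleaned table. A constant period of 20 h left a smaller residual for MCM6 than 24 h did (SD 0.11 against 0.15). Each day was seen in 1 series of 12 libraries, so the difference between days cannot be told apart from a difference between these libraries.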

How the results depend on the processing

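Read depth is unknown, and the tests rest on 1 library per time point. In alternatives of the 4 tests, of the deviations and of the shares, 268 values for single genes kept their direction and their call, or moved by less than their spread, 25 newly passed, 16 no longer passed, 19 moved and 2 reversed. Where no reason is given, the cause was not tested. The 2 reversals were the deviation of MCM3 after upper-quartile scaling (-0.0031, against 0.23) and that of MCM2 with the GC trend removed (0.13, against -0.22). Genes passing JTK were 1602, and 1061 without 6 h, 16 h, 18 h and 32 h, 909 with the GC trend removed, 395 at a period of 20 h and 394 at 28 h, where 2 of 6 members passed. Genes passing the harmonic were 1436, and 3313 with PCHIP interpolation, which replaces 2 values by a smooth curve, 949 with the GC trend removed, 155 at 20 h and 390 at 28 h, where 2 of 6 members passed at each period. Genes that differed between days were 1788, and 3720 with PCHIP, 3930 in the cleaned table and 773 with a mean of at least 10 FPKM, where fewer genes were tested. Of the 6 members, 2 passed without 16 h and 18 h and with PCHIP, and 1 without 6 h, 16 h, 18 h and 32 h and in the cleaned table. Of these genes 64.7% were higher on day 2, against 54.1% with median centring, 52.5% with quantile normalization, 49.5% in the cleaned table and 72.1% with upper-quartile scaling. Genes whose wave changed between days were 715, and 1383 without 6 h, 16 h, 18 h and 32 h and 1249 with PCHIP. MCM6 was the 1 member to pass without 16 h and 18 h, without these and 6 h and 32 h, and in the cleaned table. At 16 h and 18 h 1097 genes lay above and 871 below the line by 2-fold. The counts were 580 above with upper-quartile scaling, 650 and 492 with the GC trend removed, 549 below with a mean of at least 10 FPKM, 1308 below with a pseudocount of 0.1, and 2933 and 2060 at 1.5-fold, where MCM4 was the 1 member past the threshold.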
